A study of Mus musculus with 6 samples.

Results

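Transcripts of 10 genes for plasma membrane amino acid transporters, out of 24346 genes in the deposited table, were compared between livers of control and Med23-deleted mice 24 hours after CCl4. The genes were chosen by name: *Slc3a2*, *Slc7a1*, *Slc7a2*, *Slc7a5*, *Slc7a11*, *Slc38a2*, *Slc38a3*, *Slc38a4*, *Slc1a4* and *Slc1a5*. All 10 had a value in the table and a mean of at least 0.5 FPKM (fragments, divided by transcript length and by the size of the library) over the 6 libraries, so all of them were among the 11956 genes tested. At an adjusted p under 0.05 by limma, 6 of these 10 were higher in the med23Δli livers, beside 11.6% of all genes tested. They were *Slc7a11*, *Slc3a2*, *Slc38a2*, *Slc7a5*, *Slc1a4* and *Slc38a4*. None was lower at that threshold, beside 9.48% of all genes tested. The count of 6 was 2, 4 and 3 without med23Δli replicates 1, 2 and 3. *Slc7a11*, the cystine importer, had the largest fold change of the 10, from 0.495 FPKM ± 0.230 (SD, n = 3) to 5.71 FPKM ± 3.24 (SD, n = 3). *Slc3a2*, the partner chain it needs at the membrane, was at 96.8 FPKM ± 25.4 in the controls and at 264 FPKM ± 32.7 in the med23Δli livers (SD, n = 3 in both groups).

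Each library came from whole liver of male C57/BL6 mice aged 8 weeks. Both groups received 0.6 μl of CCl4 per g of body weight by intraperitoneal injection, diluted in sunflower oil, and the livers were taken at 24 hours. The mice of the 3 control livers (med23f/f, genotype wt in the labels) carried floxed *Med23* alleles. Those of the 3 med23Δli livers (med23 ko in the labels) carried them together with Albumin-cre, used by the authors to delete *Med23* in hepatocytes. Liver cells in which the cre does not act kept *Med23*. No livers without CCl4 were part of the comparison, so a difference between the groups is a difference between CCl4-treated livers. At this time the authors saw marked necrosis in control livers and hardly any in med23Δli livers, with lower serum ALT and AST in the latter. The degree of injury thus differed along with the genotype, and its part in the values below was not tested. CCl4 is a toxin that hepatocytes around the central vein turn into a reactive radical. In whole liver, fewer cells of a type and less RNA per cell cannot be told apart.

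Amino acid transporters divide the work by the charge and size of their substrates and by the ion that drives them. The Slc7 light chains *Slc7a5* and *Slc7a11* reach the membrane only as a pair with the glycoprotein *Slc3a2* (CD98), and they exchange one amino acid for another: *Slc7a5* brings in leucine and other large neutral amino acids, and *Slc7a11* brings in cystine for glutathione in return for glutamate. *Slc7a1* and *Slc7a2* carry arginine, lysine and ornithine on their own, *Slc7a2* being the main one of the liver. *Slc38a2* and *Slc38a4* take up alanine and other small neutral amino acids with sodium, *Slc38a3* moves glutamine and histidine in hepatocytes, and *Slc1a4* and *Slc1a5* exchange alanine, serine, cysteine and, in the case of *Slc1a5*, glutamine. Several of these genes are known targets of ATF4, the transcription factor that is made when amino acids run short or when the endoplasmic reticulum is stressed, and *Slc7a11* is also a known target of NRF2, the factor of the oxidative stress response.

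Because *Slc7a11* had the largest fold change, its promoter is shown first. The promoter table, from RefSeq on GRCm38.p6, held 6 of the 10 genes (*Slc7a1*, *Slc7a11*, *Slc38a2*, *Slc38a4*, *Slc3a2* and *Slc1a4*). The 100 bases before the *Slc7a11* start lie at chr3:50443614-50443713 on the minus strand, and the capitals mark the matches, on either strand, to TGATGNAA, the letters of the C/EBP-ATF response element that ATF4 is known to bind.
Slc7a11: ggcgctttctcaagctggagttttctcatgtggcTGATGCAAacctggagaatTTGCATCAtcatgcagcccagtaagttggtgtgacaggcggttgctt

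The 2 matches began 66 and 47 bases before the start, on opposite strands. Of 32851 promoters, 3.45% held at least 1 match in the 250 bases before the start and 0.0396%, 13 promoters, held 2 or more. The promoter was picked for the fold change of its gene, and the cut-off of 2 equals its own count. These shares are thus a description and no test. Among the other 5 genes with a promoter in the table, none held this motif in that window. The letters TGACNNNGC, the core of the antioxidant response element bound by NRF2, occurred in 10.2% of all promoters and for 11.5% of genes. Of these 6 genes 2 held them, *Slc38a2* among them. The *Slc38a2* window, at chr15:96699729-96699775 on the minus strand, is shown with the matching letters in capitals because *Slc38a2* was among the 3 transporters with a change of more than 2-fold.
Slc38a2: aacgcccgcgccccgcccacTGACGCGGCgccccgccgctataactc

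CACGTG, the E-box of the clock and MYC factors, occurred in 6.02% of all promoters (6.86% of genes). AGGTCA, the core letters of the ROR response element, occurred in 14.0% (15.8% of genes). Neither occurred in the windows of these 6 genes. The motifs were searched on both strands and their letters do not overlap in these windows. A match is a string of letters and does not show binding.

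Across all genes tested, limma on log2(FPKM + 0.1) found 11.6% higher and 9.48% lower in the med23Δli livers at an adjusted p under 0.05. With a change of more than 2-fold required as well, 4.45% were higher and 3.45% lower. The groups did not overlap for 23.3% of genes, with the med23Δli livers higher, and for 20.4% with them lower. Against these shares, the transporters had 6 of 10 higher and 0 lower at the adjusted p, 3 higher and 0 lower with the 2-fold rule (*Slc7a11*, *Slc3a2* and *Slc38a2*), and 7 without overlap, all of them higher. At an unadjusted p under 0.05, limma found 7 higher and 0 lower, beside 20.5% and 17.1% of all genes tested. Their median log2 fold change was 0.77, beside 0.02 over all genes tested, and 7 of 10 were positive, beside 52.2% of all genes tested.

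The level of *Med23* itself did not tell the groups apart. *Med23* was at 3.42, 2.97 and 4.14 FPKM in the controls and at 3.40, 3.40 and 2.91 FPKM in the libraries labelled med23Δli, a log2 fold change of -0.11 (SE 0.17, limma adjusted p = 0.685). The position of the deleted part and the *Med23* of other liver cells limit what this gene-wide value can check. One med23Δli library, replicate 2, stood apart by fat cell genes. The summed FPKM of 7 adipocyte markers reached 37.1 there, against at most 0.714 in the controls, and without this library 4 of the 10 transporters passed the test instead of 6 (*Slc7a11*, *Slc3a2*, *Slc7a5* and *Slc1a4*). Without med23Δli replicate 1 the count was 2 (*Slc7a11* and *Slc3a2*), and without replicate 3 it was 3 (*Slc7a11*, *Slc3a2* and *Slc38a4*). The share of all genes tested that were higher was 4.07%, 3.35% and 4.84% in these fits with 2 med23Δli livers. Read counts cannot be had from FPKM, so the depth of each library is unknown and the spread between the 3 samples of a group is the only error.

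**Figure D1:**
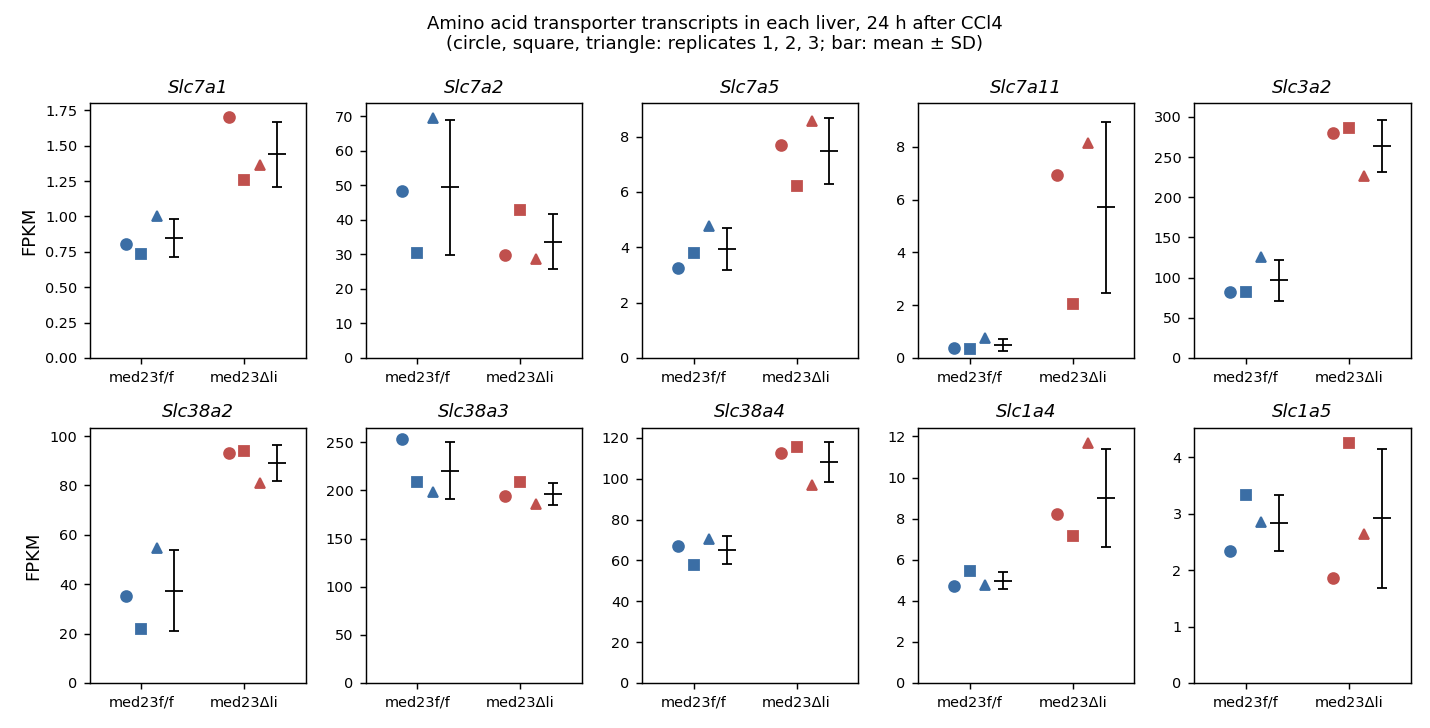
FPKM of each of the 10 transporter genes in each of the 6 livers (vertical axes start at 0; blue, med23f/f; red, med23Δli; circle, square and triangle, replicates 1, 2 and 3; black bar, mean ± SD, n = 3). The groups do not overlap for *Slc7a1*, *Slc7a5*, *Slc7a11*, *Slc3a2*, *Slc38a2*, *Slc38a4* and *Slc1a4*, and they overlap for *Slc7a2*, *Slc38a3* and *Slc1a5*.

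The first question was how the partner chains of the heteromeric exchangers differed between the groups. *Slc3a2*, the shared heavy chain (chr19:8706882-8723369, minus strand, mm10), was at 81.7, 82.5 and 126 FPKM in the 3 control livers and at 280, 286 and 226 FPKM in the 3 med23Δli livers. Every med23Δli liver was well above every control, including the high control replicate 3. The group means had a ratio of 2.73 and a log2 fold change of 1.47 (SE 0.20, limma adjusted p = 0.00455). *Slc3a2* passed the test with each library left out in turn, with log2 fold changes from 1.36 to 1.68 and adjusted p from 0.00131 to 0.0257.

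*Slc7a11* (chr3:49892526-50443614, minus strand) encodes xCT, the light chain for cystine and glutamate. It was at 0.378, 0.347 and 0.761 FPKM in the controls and at 6.92, 2.04 and 8.17 FPKM in the med23Δli livers. All controls stayed under 1 FPKM, and the med23Δli livers, though all above them, differed widely, with replicate 2 far below the others. The log2 fold change was 3.13 (SE 0.51, 95% confidence interval 1.95 to 4.31, limma adjusted p = 0.00780), which 0.326% of genes tested exceeded. The ratio of the group means was 11.5. With a control mean of 0.495 FPKM, *Slc7a11* reached the 0.5 FPKM needed for testing only through the med23Δli livers, and with no filter on low values its limma adjusted p was 0.0226. Since the control values are near the added 0.1, the log2 fold change depends on that number: it was 2.03 with 1 added and 3.36 with 0.01 added. *Slc7a11* passed with each library left out, with log2 fold changes from 2.77 to 3.74, the highest of them without med23Δli replicate 2.

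*Slc7a5* (chr8:121881150-121907694, minus strand), the LAT1 light chain for leucine and aromatic amino acids, was at 3.26, 3.81 and 4.77 FPKM in the controls and at 7.68, 6.22 and 8.56 FPKM in the med23Δli livers. The groups did not overlap, and the lowest med23Δli liver was again replicate 2. Its log2 fold change was 0.91 (SE 0.19, limma adjusted p = 0.0165). The call was lost without med23Δli replicate 1 (adjusted p = 0.0683) and without replicate 3 (adjusted p = 0.0659).

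The light chains were then set against *Slc3a2* within each liver. In that comparison, the log2 ratio of *Slc7a11* to *Slc3a2* went from -7.38 ± 0.17 in the controls to -5.72 ± 1.20 in the med23Δli livers (SD, n = 3 each), a difference of 1.66. That of *Slc7a5* to *Slc3a2* went the other way, from -4.57 ± 0.15 to -5.13 ± 0.40, a difference of -0.56. Neither pair overlapped between the groups, and each had p = 0.1 in the exact two-sided permutation test, the smallest that 3 against 3 can give (0.12 adjusted over the 6 pairs compared). Med23Δli replicate 2 was the liver nearest to the controls in the first ratio and farthest from them in the second. With 1 added in place of 0.1, the groups overlapped for *Slc7a11* to *Slc3a2* and the difference was 0.57 (exact two-sided permutation p = 0.4). Without med23Δli replicate 2 it was 2.34. The difference for *Slc7a5* to *Slc3a2* was -0.37 without that liver.

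A further description, chosen after the values were seen, sums the 6 light chains known to pair with *Slc3a2* (*Slc7a5*, *Slc7a6*, *Slc7a7*, *Slc7a8*, *Slc7a10* and *Slc7a11*), in FPKM. *Slc3a2* was 6.62, 6.78 and 8.26 times this sum in the controls and 12.6, 17.4 and 8.93 times in the med23Δli livers. *Slc3a2* transcripts thus exceeded the summed light chains in every liver, with med23Δli replicate 3 only just above the highest control. *Slc7a11* made up 3.06%, 2.85% and 4.98% of the light chain sum in the controls. In the med23Δli livers its share was 31.1%, 12.4% and 32.2%, and the groups did not overlap.

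Among the transporters for cationic amino acids, the abundant one and the scarce one had opposite signs, and neither passed the test. *Slc7a1* (chr5:148327410-148399904, minus strand), the widely expressed CAT1, was at 0.808, 0.736 and 1.00 FPKM in the controls and at 1.70, 1.26 and 1.36 FPKM in the med23Δli livers. The groups did not overlap, but the log2 fold change of 0.70 (SE 0.22, 95% confidence interval 0.18 to 1.22) had a limma adjusted p of 0.0597. It was 0.40 with 1 added to the FPKM in place of 0.1. *Slc7a1* passed without control replicate 3 (adjusted p = 0.0430) and with eBayes without a trend (adjusted p = 0.0351). *Slc7a2* (chr8:40862396-40922308, plus strand), the CAT2 of hepatocytes, was at 48.5, 30.4 and 69.5 FPKM in the controls and at 29.7, 42.7 and 28.6 FPKM in the med23Δli livers. The groups overlapped through the low control replicate 2 and the high med23Δli replicate 2, with a log2 fold change of -0.50 (SE 0.30, 95% confidence interval -1.19 to 0.19, limma adjusted p = 0.259). It was -0.81 without control replicate 2 (limma adjusted p = 0.0605) and -0.21 without control replicate 3 (limma adjusted p = 0.554). Of the exonic bases of *Slc7a2*, 635 (6.95%) lie across from *Gm26584*, a lincRNA on the opposite strand, and reads there cannot be assigned without strand information. The log2 ratio of *Slc7a1* to *Slc7a2* was higher in every med23Δli liver than in every control, at -4.44 ± 0.48 against -5.64 ± 0.41 (SD, n = 3 each). That difference of 1.20 had p = 0.1 in the exact two-sided permutation test (0.12 adjusted over the 6 pairs). With 1 added in place of 0.1 the groups overlapped, with a difference of 0.89 and an exact permutation p = 0.2.

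Of the 3 Slc38 genes among the 10, 2 were higher and the third, the most abundant of the 10 in the controls, did not pass the test. *Slc38a2* (chr15:96687392-96699730, minus strand), the SNAT2 of system A that cells induce when amino acids are scarce, was at 35.4, 21.9 and 54.6 FPKM in the controls and at 93.1, 93.8 and 80.8 FPKM in the med23Δli livers. The controls varied widely among themselves and the med23Δli livers little, and the lowest med23Δli value was above the highest control. For *Slc38a2* the log2 fold change was 1.35 (SE 0.29, limma adjusted p = 0.0188). It ranged from 1.02 to 1.67 with a library left out, and the call was lost without each med23Δli replicate (adjusted p = 0.0678, 0.0652 and 0.0578 for replicates 1, 2 and 3).

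*Slc38a4* (chr15:96994820-97055956, minus strand), the SNAT4 of liver, lies on the same chromosome as *Slc38a2*. It was at 67.2, 57.7 and 70.6 FPKM in the controls and at 113, 115 and 96.8 FPKM in the med23Δli livers. The groups did not overlap and the spread within each was small. The log2 fold change was 0.73 (SE 0.14, limma adjusted p = 0.0125), under 2-fold, and the call was lost without med23Δli replicate 1 (adjusted p = 0.0632) and without replicate 2 (adjusted p = 0.0602).

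*Slc38a3* (chr9:107650634-107669530, minus strand), the glutamine and histidine transporter SNAT3, was at 254, 209 and 198 FPKM in the controls and at 194, 209 and 186 FPKM in the med23Δli livers. The groups overlapped, and control replicate 1 was the highest. The log2 fold change was -0.16 (SE 0.14, limma adjusted p = 0.442), with a 95% confidence interval of -0.49 to 0.17. It was -0.05 without control replicate 1. Within each liver, the log2 ratio of *Slc38a3* to *Slc38a4* was 1.75 ± 0.23 in the controls and 0.86 ± 0.08 in the med23Δli livers (SD, n = 3 each). The log2 ratio of *Slc38a2* to *Slc38a4* was -0.90 ± 0.51 in the controls and -0.28 ± 0.02 in the med23Δli livers. Neither ratio overlapped between the groups, with differences of -0.89 and 0.62, each with p = 0.1 in the exact two-sided permutation test (0.12 adjusted over the 6 pairs). Without control replicate 2, the latter difference was 0.37.

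The Slc1 pair of neutral amino acid exchangers differed in that *Slc1a4* passed the test and *Slc1a5* did not. *Slc1a4* (chr11:20302180-20332713, minus strand), the ASCT1 exchanger of alanine, serine and cysteine, was at 4.73, 5.46 and 4.75 FPKM in the controls and at 8.23, 7.13 and 11.7 FPKM in the med23Δli livers. The controls were close to each other and below every med23Δli liver. *Slc1a4* had a log2 fold change of 0.82 (SE 0.20, limma adjusted p = 0.0254). The call was lost without control replicate 1 (adjusted p = 0.0648), med23Δli replicate 1 (adjusted p = 0.0736) and med23Δli replicate 3 (adjusted p = 0.0671).

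*Slc1a5* (chr7:16781340-16798274, plus strand), the glutamine exchanger ASCT2, is known to be low in adult hepatocytes. It was at 2.33, 3.33 and 2.85 FPKM in the controls and at 1.86, 4.26 and 2.64 FPKM in the med23Δli livers. Replicates 1 and 2 of the med23Δli group were the lowest and the highest of all 6 livers. The log2 fold change was -0.02 (SE 0.29, 95% confidence interval -0.70 to 0.65, limma adjusted p = 0.961), and its sign changed with the library left out. The log2 ratio of *Slc1a4* to *Slc1a5* was 0.80 ± 0.16 in the controls and 1.64 ± 0.79 in the med23Δli livers, and it overlapped because med23Δli replicate 2 was at 0.73 (difference 0.84, exact two-sided permutation p = 0.2, also 0.2 adjusted over the 6 pairs). Without that liver the difference was 1.30.

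**Figure D2:**
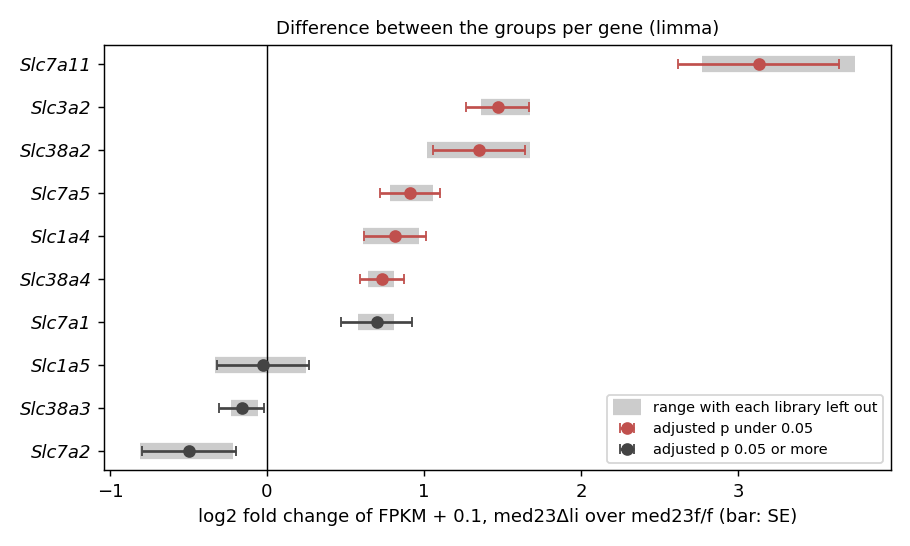
Log2 fold change of FPKM + 0.1, med23Δli over med23f/f, for the 10 transporters in order of size (point, limma estimate with its SE; red, adjusted p under 0.05; grey band, range with each of the 6 libraries left out). *Slc7a11* stands at 3.13, the 5 other red points lie between 0.73 and 1.47, and the bands of *Slc7a2* and *Slc38a3* stay below 0 whereas that of *Slc1a5* crosses it.

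FPKM is given per length, so levels can be set side by side between genes. In the controls the order of mean levels ran from *Slc38a3* at 220 FPKM ± 29.4 through *Slc3a2* and *Slc38a4* to *Slc7a11* as the lowest. The ranges of *Slc38a4*, *Slc7a2* and *Slc38a2* overlapped from neighbour to neighbour, as did those of *Slc1a4*, *Slc7a5* and *Slc1a5* and those of *Slc7a1* and *Slc7a11*. In the med23Δli livers *Slc3a2*, at 264 FPKM ± 32.7, was above *Slc38a3*, at 196 FPKM ± 11.7 (SD, n = 3 each), with no overlap. *Slc38a4*, *Slc38a2* and *Slc7a2* followed, each apart from the next. *Slc7a11* now stood among *Slc1a4*, *Slc7a5* and *Slc1a5*, whose ranges overlapped from neighbour to neighbour, and *Slc7a1* was the lowest. Summed over the 10 genes, the level was 415 to 533 FPKM in the controls and 651 to 768 FPKM in the med23Δli livers.

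The livers of a group did not vary in the same way for every gene. Control replicate 3 was the highest control for 7 of the 10 genes, and *Slc38a3* was the gene for which it was the lowest. Among the med23Δli livers, replicate 2 was the highest for *Slc7a2*, *Slc3a2*, *Slc38a2*, *Slc38a3*, *Slc38a4* and *Slc1a5*. It was the lowest for the other 4, *Slc7a1*, *Slc7a5*, *Slc7a11* and *Slc1a4*.

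**Figure D3:**
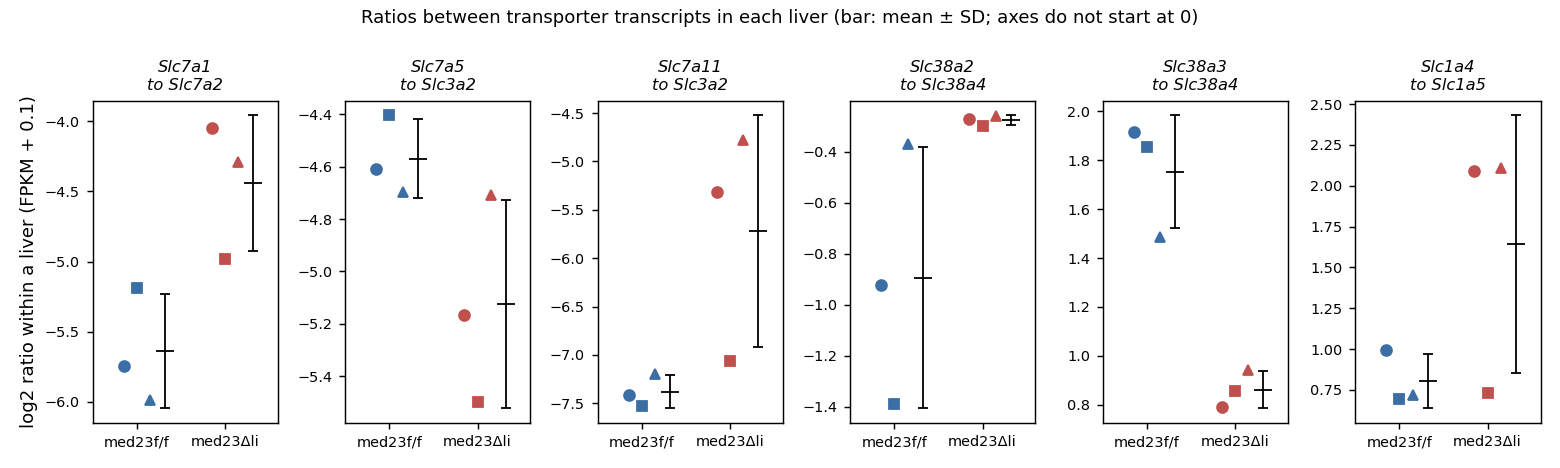
Log2 ratio, within each liver, of 1 transporter to another for 6 pairs (log2 of FPKM + 0.1; blue, med23f/f; red, med23Δli; circle, square and triangle, replicates 1, 2 and 3; bar, mean ± SD, n = 3; vertical axes do not start at 0). The groups are apart in 5 pairs and overlap for *Slc1a4* to *Slc1a5*, where med23Δli replicate 2 at 0.73 lies among the controls.

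The genes whose values over the 6 libraries followed *Slc7a11* most closely were *Cd274*, *AW495222*, *Dad1*, *Ptk2* and *Fhod3*. Their Pearson correlations with *Slc7a11* were 0.995, 0.992, 0.986, 0.985 and 0.985 on the log2(FPKM + 0.1) scale. *Cd274*, which encodes the immune checkpoint ligand PD-L1, was at 0.635, 0.606 and 0.716 FPKM in the controls and at 1.17, 0.825 and 1.18 FPKM in the med23Δli livers. Each of these genes shares with *Slc7a11* the low value in med23Δli replicate 2, and 89 genes had a correlation over 0.95. The 6 points share their 2 groups, so any gene that differs between the groups correlates with *Slc7a11*.

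Beyond these 10, the table held 44 other genes for amino acid transporters of the plasma membrane or lysosome, of which 19 were high enough to test. Of these 19, 7 were higher and 0 lower at an adjusted p under 0.05 by limma (3 lower at an unadjusted p under 0.05), with a median log2 fold change of 0.31, beside 11.6% higher, 9.48% lower and a median of 0.02 over all genes tested. With no filter on low values the count was 6 of 40 tested, and with a filter at 1 FPKM it was 5 of 17, and the median was 0.05 in both. Without control replicate 2 the median was 0.12, without med23Δli replicate 2 it was 0.19, and with 1 added in place of 0.1 it was 0.17. The largest was that of *Slc1a7*, a glutamate transporter, which was listed at 0.0161, 0.0258 and 0 FPKM in the controls and at 0.999, 0.748 and 1.27 FPKM in the med23Δli livers. Its log2 fold change of 3.26 (limma adjusted p = 0.00280) rests on control values below the added 0.1, and it reached the 0.5 FPKM needed for testing only through the med23Δli livers, so that it had to differ. *Slc6a9*, the glycine transporter GlyT1, was at 21.1, 23.8 and 26.4 FPKM in the controls and at 75.0, 67.1 and 58.0 FPKM in the med23Δli livers (log2 fold change 1.48, SE 0.15, limma adjusted p = 0.00177). *Slc6a12*, a carrier of betaine and GABA, went from 8.49 FPKM ± 0.621 to 18.1 FPKM ± 0.771 (SD, n = 3 each; log2 fold change 1.09, limma adjusted p = 0.00275). Among the 7 were also 3 of the Slc38 family, *Slc38a7*, *Slc38a9* and *Slc38a10*, named after their values were seen, with log2 fold changes of 0.68, 1.00 and 0.79 (limma adjusted p = 0.0259, 0.0143 and 0.0101). The count of 7 fell to 2, 4 and 3 without med23Δli replicates 1, 2 and 3. *Slc7a12*, *Slc7a13*, *Slc6a15* and *Slc6a18* were listed at 0 in every library.

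A list of 24 known ATF4 targets and stress response genes, none of them among the 10 transporters, had 23 genes tested. Of these, 10 were higher and 0 lower by limma (0 lower also at an unadjusted p under 0.05), with a median log2 fold change of 0.84, beside the 11.6% higher and 9.48% lower of all genes tested. With no filter on low values 8 of 24 were higher. *Nupr1*, a stress-induced chromatin protein, was at 57.9, 31.7 and 60.3 FPKM in the controls and at 411, 527 and 481 FPKM in the med23Δli livers (log2 fold change 3.29, SE 0.25, limma adjusted p = 0.000771). *Vldlr*, a lipoprotein receptor, and *Pycr1*, an enzyme of proline synthesis, had log2 fold changes of 2.55 (limma adjusted p = 0.0170) and 1.65 (limma adjusted p = 0.0134). *Pycr1*, at 0.358 FPKM ± 0.160 in the controls and 1.29 FPKM ± 0.235 in the med23Δli livers (SD, n = 3 each), was high enough to test only through the latter. *Atf4* itself, picked out after its values were seen, was at 148, 152 and 153 FPKM in the controls and at 167, 138 and 149 FPKM in the med23Δli livers (log2 fold change 0.00, SE 0.13, limma adjusted p = 0.990). ATF4 is known to be set mainly at translation, which these data do not measure. The count of 10 was 5 without med23Δli replicate 1 and 6 without replicate 3.

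Of the 15 NRF2 targets, 2 were higher and 5 lower by limma, where the shares over all genes tested were 11.6% and 9.48%. Their median log2 fold change was -0.41, and it was -0.18 without control replicate 2 and -0.61 without control replicate 3. *Gsta4*, a glutathione transferase, was at 87.7, 165 and 37.6 FPKM in the controls and at 20.5, 6.99 and 9.75 FPKM in the med23Δli livers (log2 fold change -2.86, limma adjusted p = 0.0132). *Nqo1*, a quinone reductase, fell by 2.20 on the log2 scale (limma adjusted p = 0.0305), and *G6pdx*, the entry enzyme of the pentose phosphate pathway, fell by 1.70 (limma adjusted p = 0.0171). *Hmox1*, haem oxygenase, and *Prdx1*, a peroxiredoxin, were the 2 that rose, by log2 fold changes of 0.59 and 0.63 (limma adjusted p = 0.0150 and 0.0369). The count of 5 lower became 0 without med23Δli replicate 3, 2 without replicate 1 and 3 without replicate 2. The count of 2 higher became 0 without med23Δli replicate 1 or 2, and 1 without med23Δli replicate 3 or control replicate 2 or 3.

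Enzymes that use glutamine, arginine and related amino acids, 17 tested of 18, had 2 higher and 5 lower by limma, again beside 11.6% and 9.48% of all genes tested. Their median log2 fold change was -0.25. It was -0.11, -0.45 and -0.12 without control replicates 1, 2 and 3, and -0.05 with a filter at 1 FPKM or no filter. *Gpt2*, a mitochondrial alanine transaminase, and *Nags*, which makes the activator of the urea cycle, had log2 fold changes of -1.39 (limma adjusted p = 0.00657) and -0.77 (limma adjusted p = 0.0446). *Got2*, the mitochondrial aspartate transaminase, rose by 0.63 on the log2 scale (limma adjusted p = 0.0146). The count of 5 lower was 2 without med23Δli replicate 1 or 3, and 3 without replicate 2 or control replicate 1. The count of 2 higher was 0 without med23Δli replicate 1 or 2, and 1 without med23Δli replicate 3 or control replicate 2.

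**Figure D4:**
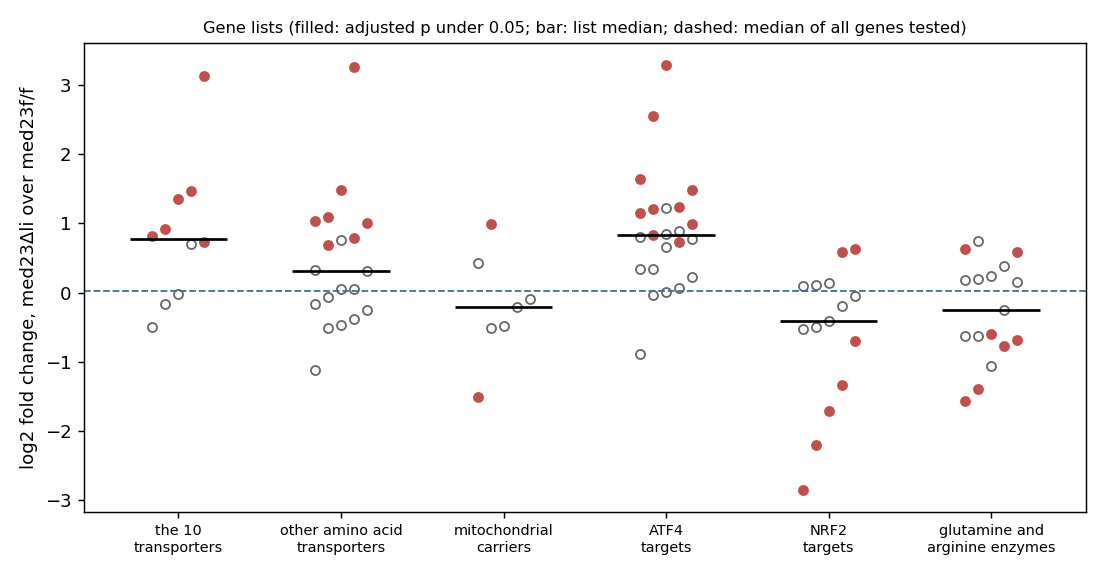
Log2 fold change, med23Δli over med23f/f, of every gene tested in 6 lists (filled, adjusted p under 0.05 by limma; black bar, list median; dashed line, median of all genes tested at 0.02). The medians of the 10 transporters and of the ATF4 targets lie at 0.77 and 0.84, and those of the NRF2 targets and the glutamine and arginine enzymes at -0.41 and -0.25, which move to -0.18 and -0.45 without control replicate 2.

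Markers of liver cell types were set beside these values. For the counts that follow, 11.6% of all genes tested were higher and 9.48% lower at the adjusted p. At an unadjusted p under 0.05 these shares were 20.5% and 17.1%. Hepatocyte markers, 10 of 10 tested, had 1 higher (*Hpd*) and 0 lower (3 higher and 3 lower at an unadjusted p under 0.05; 2 higher and 3 lower without control replicate 3, and 2 lower with quantile normalization), and their summed level was 24128 to 33740 FPKM in the controls and 20983 to 27285 FPKM in the med23Δli livers. Markers of pericentral hepatocytes had 4 of 10 higher (*Cyp1a2*, *Cyp2e1*, *Gulo* and *Axin2*) and 0 lower (1 lower at an unadjusted p under 0.05). *Rhbg* was lower in every med23Δli liver than in every control (log2 fold change -0.73, limma adjusted p = 0.101). *Slc1a2* and *Glul*, at -0.46 and 0.18, overlapped between the groups. The list summed to 569 to 747 FPKM in the controls and 1150 to 1284 FPKM in the med23Δli livers. *Cyp2e1* alone had means of 254 and 590 FPKM. Markers of periportal hepatocytes had 3 of 10 lower (*Etnppl*, *Hal* and *Sds*) and 0 higher (2 higher at an unadjusted p under 0.05), summing to 1410 to 2147 FPKM and 1247 to 1552 FPKM. The hepatocyte and periportal sums overlapped between the groups. All 9 endothelial markers were lower (8 with no filter on low values, 7 with the replicate number as a block), summing to 93.4 to 133 FPKM and 50.9 to 54.7 FPKM. Without med23Δli replicate 1 or 3 the periportal count was 1, and the endothelial count was 4 or 5. *Slc1a2*, which overlapped between the groups, counts both as a pericentral marker and among the other transporters. Of 12 macrophage markers 1 was lower (*C1qa*) and 0 higher, with 4 lower and 0 higher at an unadjusted p under 0.05. The count of macrophage markers lower was 4 without control replicate 1, and 0 without any other single library. Without control replicate 3, 1 macrophage marker and 1 periportal marker were higher. Their sums of 350 to 468 FPKM and 360 to 370 FPKM overlapped. Some zone markers and all endothelial markers thus differed between the same livers as the transporters that rose, and their part in those rises was not tested.

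Med23Δli replicate 2, the liver with fat cell genes, was the highest of its group for 6 of the 10 transporters and the lowest for 4, as given above, and the part of those fat cell genes in the values was not tested. Without this liver, the log2 fold changes of the 6 transporters that had passed lay at 3.74 for *Slc7a11*, 1.41 for *Slc3a2*, 1.31 for *Slc38a2*, 1.04 for *Slc7a5*, 0.97 for *Slc1a4* and 0.68 for *Slc38a4*. *Slc38a2* and *Slc38a4* then no longer passed (limma adjusted p = 0.0652 and 0.0602).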

How the data were processed

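Total RNA of 6 whole mouse livers (3 med23f/f, 3 med23Δli) was sequenced as paired reads. The authors checked reads with FastQC, trimmed adapters, aligned to mm10 with TopHat and ran Cuffdiff, whose FPKM per library were deposited for 24346 genes (versions and annotation not given in the sources used here). The deposited table also holds group means, fold changes and test results of the authors, which were not used. All 6 library columns could be tied to a labelled liver.

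FPKM values keep no counts, and ratios of low values between libraries had no shared step that would give whole reads back, so no counting interval was possible and the depth per library is unknown. Values were taken as log2(FPKM + 0.1); fold changes on this scale understate changes of low genes. The 11956 genes whose mean over the libraries reached 0.5 FPKM were fitted with limma 3.58.1 in R 4.3.3 (lmFit, eBayes with trend, no covariate), with Benjamini-Hochberg adjustment over all of them and a threshold of 0.05. Ratios within a liver had an exact permutation test. Each sample is called a liver here, though the labels number the samples of a group without saying that each is a separate mouse. The p-values measure the spread between these samples, which may then be technical. The fit was tested on simulated data.

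All 10 transporters are named. Of each other list, the genes named are those that passed with the 3 largest changes, and the 5 genes most correlated with the transporter of the largest rise; further genes were named after their values were seen. Some genes and a sequence that fall under these rules are not reported here. The transporters and the lists were chosen with earlier results of these data known. Positions come from GENCODE M21, on the assembly of mm10. Promoters come from RefSeq (GRCm38.p6), matched by symbol. Alternatives were pseudocounts of 1 and 0.01, no filter or one at 1 FPKM, median centring, quantile normalization, eBayes without a trend or robust, the replicate number as a block, stricter thresholds, and each library left out. Python 3.11.15 was used for the rest.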

Additional observations from a re-analysis of the deposited data

How the results depend on the processing

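The count of 6 transporters higher in med23Δli livers was 3 when a change of more than 2-fold was required as well and 2 at an adjusted p under 0.01. With a library left out it ranged from 2 to 7: 2 without med23Δli replicate 1, 3 without replicate 3 and 4 without replicate 2, when 3.35%, 4.84% and 4.07% of all genes tested were higher, and 5, 6 and 7 without control replicates 1, 2 and 3. These fits have fewer samples. Under the other pseudocounts, filters and scalings and robust eBayes it was 6, and it was 7 with eBayes without a trend. The count of transporters lower was 0 in all settings run. The log2 fold change of *Slc1a5* changed sign without control replicate 2 (0.09), without med23Δli replicate 1 (0.25) and without med23Δli replicate 3 (0.01), and ranged from -0.33 to 0.25 with a library left out. No other transporter changed sign in any setting run. Of 150 values of single transporters under an alternative, 134 kept their sign and their side of the threshold, 11 no longer passed, 2 newly passed (both *Slc7a1*) and 3 changed sign.

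With the replicate number as a block (replicate block), 5 transporters were higher, *Slc1a4* being lost (limma adjusted p = 0.0583), and 6.77% of all genes tested were higher. Same-numbered livers had correlations of deviations of -0.02, -0.05 and -0.12, and differently numbered livers had -0.09 to 0.12. The same-numbered values thus show no pairing, but deviations within groups of 3 cannot exclude it. FPKM without counts leave low genes such as *Slc7a11* and *Slc7a1* in the controls without a measure of counting error.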

Other observations

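Carriers that take amino acids across the inner mitochondrial membrane, 7 tested of 9, had 1 higher and 1 lower by limma, beside 11.6% and 9.48% of all genes tested. Their median log2 fold change was -0.22, and it was -0.10 without control replicate 1 and -0.14 without control replicate 2. *Slc25a29*, a carrier of basic amino acids, was at 2.97, 4.10 and 2.16 FPKM in the controls and at 1.16, 1.12 and 0.736 FPKM in the med23Δli livers (log2 fold change -1.50, SE 0.28, limma adjusted p = 0.0114). *Slc25a44*, a carrier of branched-chain amino acids, was at 18.6, 16.2 and 25.2 FPKM in the controls and at 40.7, 45.1 and 32.9 FPKM in the med23Δli livers (log2 fold change 0.99, SE 0.20, limma adjusted p = 0.0141). Without med23Δli replicate 1 or 2, *Slc25a44* no longer passed. The counts became 2 higher without control replicate 1 and 2 lower without control replicate 2.

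Genes by which mTORC1 senses amino acids, 20 tested of 22, had a median log2 fold change of 0.13 (0.21 without control replicate 2). By limma 1 was higher and 1 lower, beside 11.6% and 9.48% of all genes tested. At an unadjusted p under 0.05, 7 were higher and 2 lower, beside 20.5% and 17.1%. *Mtor*, the kinase, went from 5.27 FPKM ± 0.430 to 8.99 FPKM ± 1.39, and *Rraga*, the RagA GTPase, from 68.3 FPKM ± 4.13 to 40.4 FPKM ± 1.65 (SD, n = 3 each; log2 fold changes 0.75 and -0.75, limma adjusted p = 0.0174 and 0.00711). The count of 1 higher ranged from 0 to 6 with a library left out.

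*Slc36a2*, a proton-coupled carrier of small amino acids, was at 1.36 FPKM in med23Δli replicate 2, the liver with the fat cell genes, and was listed at 0 in the other 5 livers.

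Other marker lists had few or no genes that passed, or were too low to test. Of all genes tested, 11.6% were higher and 9.48% lower at the adjusted p (20.5% and 17.1% at an unadjusted p under 0.05). By limma, 0 of 5 neutrophil markers, 0 of 5 cholangiocyte markers, 0 of 5 markers of dividing cells, 0 of 2 adipocyte markers and 0 of 1 B cell marker passed in either direction at the adjusted p, and no T or NK cell marker was high enough to test. At an unadjusted p under 0.05, 3 neutrophil markers were lower, 1 marker of dividing cells was lower and 1 was higher, and the count was 0 for the cholangiocyte, adipocyte and B cell markers. Of the stellate cell markers 1 of 10 was lower (*Des*, limma adjusted p = 0.0497), and 0 without any single library other than control replicate 3. Of the red cell markers 1 of 4 was higher, *Hba-a1*, which was at most 0.00311 FPKM in the controls and at 18.0, 4.77 and 0.139 FPKM in the med23Δli livers. *Hba-a1* was high enough to test only through the latter, and no red cell marker was higher with no filter on low values or without any single library other than med23Δli replicate 3.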
